A study of Mus musculus with 6 samples.

Results

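Phase II conjugation enzymes are the transferases that attach glutathione, glucuronic acid or sulfate to drugs, hormones, bilirubin and products of oxidation, so that the product dissolves in water and can leave the hepatocyte in bile or blood. They were taken here as the genes whose symbols belong to the glutathione S-transferases (GST: Gsta, Gstk, Gstm, Gsto, Gstp, Gstt and the microsomal Mgst genes), the UDP-glucuronosyltransferases (UGT: Ugt1a, Ugt2a, Ugt2b and Ugt3a genes) and the cytosolic sulfotransferases (SULT). The rule found 60 of the 17975 genes in the table, of which 23 were GST, 20 were UGT and 17 were SULT genes. The rule used symbols alone, but the set was chosen with earlier results of these data known. Counts of members set beside all genes are therefore a description. Enough reads for a test were found for 48 of the 60, namely 21 GST, 18 UGT and 9 SULT genes.

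Each family draws on its own donor. GSTs use glutathione, whose first committed step of synthesis is made by the Gclc and Gclm subunits, UGTs use UDP-glucuronic acid, which Ugdh makes from UDP-glucose, and SULTs use the sulfate donor PAPS, which Papss1 and Papss2 make. In liver the families lie mostly in hepatocytes, several members differ between male and female mice, and the nuclear receptors CAR and PXR, the aryl hydrocarbon receptor and the oxidant-responsive factor NRF2 are known inducers of many of them.

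RNA came from whole liver of 3 WT mice and 3 Hom mice, 1 liver per mouse. Hom mice carried NEK7 fl/fl alleles and Alb-Cre, a Cre recombinase driven by the albumin promoter, to delete NEK7, a serine/threonine kinase, in hepatocytes. The paper calls this knockout hepatocyte-specific. The state of the gene in the other cells of the tissue was not measured here. The labels of the control mice read WT and name no further allele, and no label gives age or sex for either group. The labels give no treatment for either group.

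Nek7 was at 62.9, 69.1 and 63.7 CPM in WT replicates 1, 2 and 3 and at 14.5, 18.1 and 16.7 CPM in Hom replicates 1, 2 and 3, where CPM are read counts per 1000000 reads after TMM scaling. Libraries held 19349418 to 19730236 estimated reads, with TMM factors of 0.81 to 0.92 in WT and 1.09 to 1.23 in Hom livers. A pair of libraries stood apart within their groups. In Hom replicate 1 the genes Ddx3y, Kdm5d, Eif2s3y and Uty of the Y chromosome had 0, 0, 4 and 149 counts, and the 4 genes summed to 7.14 CPM against 127 to 137 CPM in the other 5 livers. In WT replicate 1 a list of 17 male-biased liver genes summed to 10400 CPM against 42100 and 38400 CPM in the other WT livers and 1580 to 9400 CPM in Hom livers, and the female-biased gene Cyp2b9 was at 105 CPM against at most 4.20 CPM in the other 5. Hepatocyte markers were present in every library, and 23 of 38 were lower and 2 higher in Hom livers (median log2 fold change −0.69), with summed levels of 238000 to 277000 CPM in WT and 134000 to 197000 CPM in Hom livers. Of 15 cholangiocyte markers tested, 13 were higher (median 2.96), with sums of 106 to 114 and 707 to 947 CPM. The part of these shifts in the phase II changes was not tested. In bulk tissue, fewer cells of a type and less RNA per cell cannot be told apart.

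The following stretches are the 250 bases before the annotated start of 6 members, from RefSeq on GRCm38.p6, the build of the RefSeq table rather than of the deposited values. Ugt1a9, Ugt1a6a and Ugt1a1 are shown because they are separate first-exon promoters of a single locus whose products fell, and Gsta1, Gsta3 and Gstm5 because they are GST genes that moved in opposite directions. Capitals mark a match, on either strand, to TGACNNNGC (the core of the antioxidant response element that NRF2 binds), GTTAAT (an HNF1 half-site), TTCNNNGAA (a STAT5 site) or GCGTG (the core of the aryl hydrocarbon receptor element).
Ugt1a9, chr1:88070529-88070778, plus strand: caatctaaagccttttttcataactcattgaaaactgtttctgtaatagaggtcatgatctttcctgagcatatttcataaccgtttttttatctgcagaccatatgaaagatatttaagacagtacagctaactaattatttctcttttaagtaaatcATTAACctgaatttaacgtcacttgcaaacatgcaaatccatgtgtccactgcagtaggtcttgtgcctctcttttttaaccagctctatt
Ugt1a6a, chr1:88134559-88134808, plus strand: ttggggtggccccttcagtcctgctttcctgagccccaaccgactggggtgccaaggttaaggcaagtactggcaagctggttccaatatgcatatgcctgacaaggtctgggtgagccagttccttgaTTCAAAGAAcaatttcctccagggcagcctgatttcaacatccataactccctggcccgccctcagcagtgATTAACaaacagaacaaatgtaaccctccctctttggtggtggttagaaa
Ugt1a1, chr1:88211709-88211958, plus strand: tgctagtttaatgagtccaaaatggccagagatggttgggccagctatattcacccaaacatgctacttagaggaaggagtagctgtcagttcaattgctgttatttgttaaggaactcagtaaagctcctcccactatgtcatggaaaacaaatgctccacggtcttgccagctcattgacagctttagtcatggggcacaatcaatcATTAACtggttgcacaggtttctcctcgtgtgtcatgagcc
Gsta1, chr9:78230419-78230668, plus strand: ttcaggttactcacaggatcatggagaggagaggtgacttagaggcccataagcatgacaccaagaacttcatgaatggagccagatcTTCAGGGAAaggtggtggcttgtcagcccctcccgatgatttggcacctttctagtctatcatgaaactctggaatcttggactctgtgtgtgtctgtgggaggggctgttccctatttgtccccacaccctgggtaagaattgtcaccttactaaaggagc
Gsta3, chr1:21240335-21240584, plus strand: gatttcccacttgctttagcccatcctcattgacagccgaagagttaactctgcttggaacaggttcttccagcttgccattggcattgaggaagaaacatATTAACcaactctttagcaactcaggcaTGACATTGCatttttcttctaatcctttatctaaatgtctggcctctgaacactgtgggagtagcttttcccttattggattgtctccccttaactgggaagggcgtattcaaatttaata
Gstm5, chr3:107895604-107895853, plus strand: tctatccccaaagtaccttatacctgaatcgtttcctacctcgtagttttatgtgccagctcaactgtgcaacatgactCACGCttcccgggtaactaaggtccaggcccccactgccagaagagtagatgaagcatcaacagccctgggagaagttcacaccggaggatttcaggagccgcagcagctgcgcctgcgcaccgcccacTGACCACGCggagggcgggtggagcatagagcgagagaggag

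The HNF1 half-site GTTAAT, on the minus strand in each case shown and thus printed as ATTAAC, began 91 bases before the start in Ugt1a9, 50 in Ugt1a6a, 41 in Ugt1a1 and 149 in Gsta3. Windows of the same length held it in 12 of the 52 members that had a promoter in the table (23.1%), against 7.5% of 27025 genes. Those 12 were Gsta3, Sult1a1, Sult1d1, Sult2a3, Sult2a4, Sult2a5, Ugt1a1, Ugt1a10, Ugt1a6a, Ugt1a9, Ugt2a3 and Ugt3a1, of which 7 were lower in Hom livers, 2 did not pass the test and 3 were not tested. Over all 48 tested members 25 were lower (52.1%), against 20.1% of all tested genes. Ugt1a1, Ugt1a10, Ugt1a6a and Ugt1a9 are genes of 1 locus and not separate cases. A link between the match and the fall was not tested. The antioxidant response core TGACNNNGC stood in 4 members (7.7%, against 11.5% of all genes), namely Gsta3, Gstm5, Gstm7 and Mgst1, of which Gstm5 was higher and the other 3 were lower. The STAT5 site TTCNNNGAA stood in Gsta1, Gstm6, Sult3a1 and Ugt1a6a (7.7%, against 8.1%). The shorter GCGTG stood in 10 members (19.2%, against 30.9%), and in Gstm5 a match to it overlapped the TGACNNNGC match. A match is a description of letters in this window and shows no binding. Gsta4, Gstt2, Ugt1a6b, Ugt3a2, Sult2a1, Sult2a2, Sult2a7 and Sult4a1 had no entry in the promoter table.

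Phase II genes were more often lower than higher in Hom livers. Of the 48 tested members, 25 fell (52.1%), against 20.1% of the 13805 genes tested, and 5 rose (10.4%), against 21.5% of all tested genes (adjusted p under 0.05, quasi-likelihood test of edgeR, Benjamini-Hochberg over all genes). The median log2 fold change of the members was −0.52, while that of all tested genes was −0.0018. In 27 of the 48 tested members every Hom value was under every WT value, against 27.0% of all tested genes. In 5 of the 48 every Hom value was above every WT value, against 28.7% of all tested genes. Sult2a1, Sult2a2 and Sult4a1, which were not tested, also had every Hom value above every WT value. The fall was most common among the UGT genes, with 14 of 18 lower and 1 higher (median log2 fold change −0.92). Among GST genes 7 of 21 fell and 3 rose, with a median of −0.27 that turned to 0.15 with library size alone in place of TMM scaling. Among SULT genes 4 of 9 fell and 1 rose, with a median of −0.27 that turned to 0.19 with library size alone and to 0.12 without a filter on low counts. The families were not tested against each other.

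**Figure D1:**
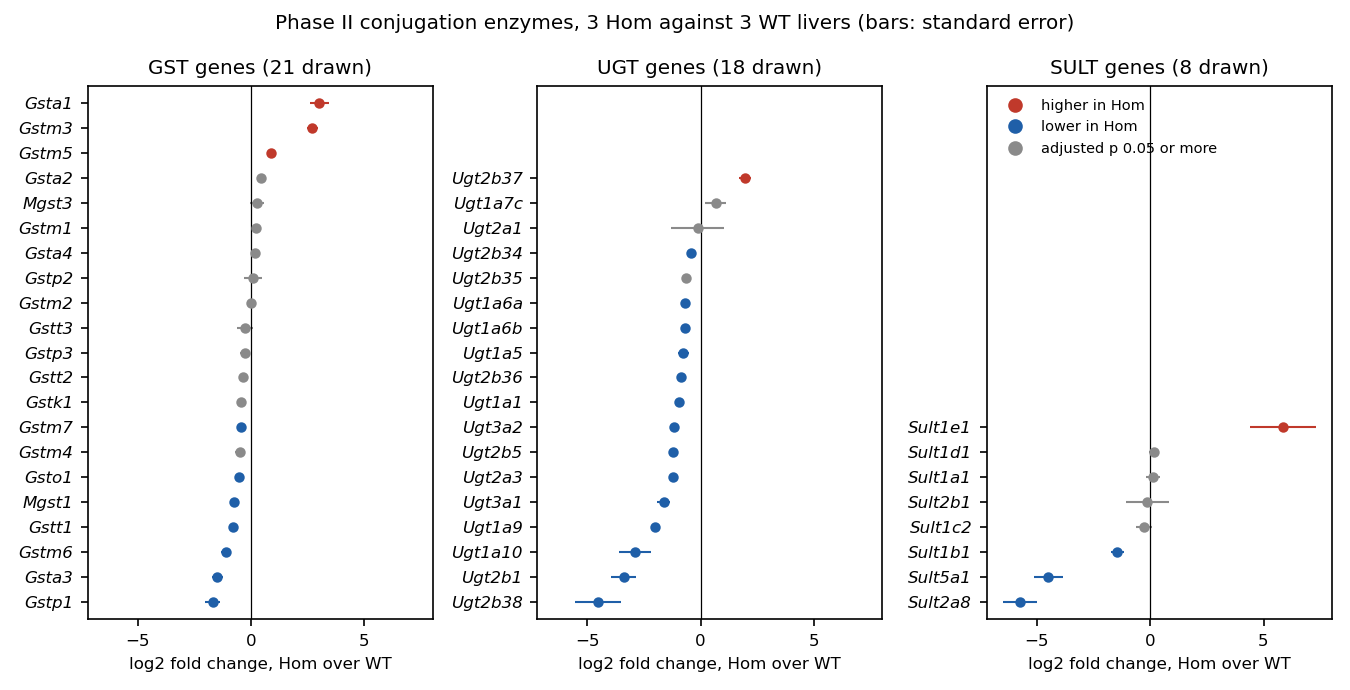
Log2 fold change (Hom over WT, horizontal axis) of 47 tested members by family, with points for the fitted value, bars for 1 standard error and colour for the call. UGT points lie mostly to the left of 0, GST points fall on both sides, and the widest spread is among the SULT genes. Sult2a7 was tested but is not drawn, since its Hom livers held 3 counts in all.

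Without Hom replicate 1, the library with 0 counts of Ddx3y, 7 members rose and 25 fell. Without WT replicate 1, 5 rose and 22 fell, and with both left out 8 rose and 25 fell. With library size alone the median of all genes moved to 0.45, and the split was 8 higher and 15 lower for all members, 5 higher and 2 lower for GST genes and 2 higher and 4 lower for SULT genes. UGT genes kept a median of −0.47 under that scaling, with 1 higher and 9 lower. With upper-quartile factors the phase II split was 6 higher and 21 lower, and the GST split 4 higher and 5 lower.

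Among GST genes, the pi-class enzyme Gstp1 held the largest share of transcripts in WT replicates 2 and 3 but in no Hom liver. Gstp1 (NCBI Gene 14870) was at 1391, 3309 and 3248 CPM in the WT livers and at 753, 868 and 837 CPM in the Hom livers. The WT livers were far apart, with replicate 1 under the other 2, but all lay above the Hom livers. Gstp1 fell by 1.69 on the log2 scale (standard error, SE, 0.33, with an adjusted p of 0.0076 by edgeR). The change was −2.00 (adjusted p = 8.9e-04) without WT replicate 1. Reads of Gstp1 are hard to separate from those of its copy Gstp2, since 62.3% of the 50-base words of its longest transcript recur elsewhere, and the summed reads of Gstp1 and Gstp2 gave −1.69. Gstp2 itself, at 2.57 to 6.33 CPM, and Gstp3, at 10.3 to 19.3 CPM, overlapped between the groups.

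Other abundant GST genes fell too. Gsta3, the alpha-class enzyme that conjugates aflatoxin epoxide in mice, was at 1428, 1628 and 1471 CPM in WT livers and at 349, 708 and 561 CPM in Hom livers, with Hom replicate 1 the lowest. It fell by 1.48 on the log2 scale (SE 0.26, adjusted p = 0.0049, edgeR), and none of its 50-base words recur in another gene. Mgst1, a membrane-bound transferase of the endoplasmic reticulum and the outer mitochondrial membrane, was at 2012, 2343 and 2451 CPM in WT and at 1122, 1462 and 1495 CPM in Hom livers, a log2 change of −0.74 (SE 0.17, adjusted p = 0.015, edgeR). Gstt1, the theta-class enzyme for small halogenated compounds, had tight groups, with 251 to 270 CPM in WT and 142 to 168 CPM in Hom livers, and fell by 0.77 on the log2 scale (adjusted p = 0.0018, edgeR). Gstm6, a mu-class gene, was at 140 to 193 CPM in WT and 53.8 to 87.3 CPM in Hom livers (log2 change −1.10, adjusted p = 0.0068, edgeR). Each of Mgst1, Gstt1 and Gstm6 stayed negative and missed the threshold with library size alone, at −0.27, −0.32 and −0.62.

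Gsto1, which reduces dehydroascorbate, and Gstm7 were the smallest declines in the family. Gsto1 was at 104, 94.0 and 118 CPM in WT and 90.7, 66.3 and 59.7 CPM in Hom livers (log2 change −0.54, adjusted p = 0.038, edgeR). Gstm7 was at 75.7 to 88.4 CPM in WT and 51.7 to 70.8 CPM in Hom livers (log2 change −0.46, adjusted p = 0.031, edgeR). In both genes the groups came within a few CPM of each other without overlapping. Leaving out a single liver lost the call of Gsto1 in 5 of 6 cases (edgeR adjusted p of 0.068 without WT replicate 1, 0.059 without WT replicate 2, 0.11 without WT replicate 3, 0.11 without Hom replicate 2 and 0.11 without Hom replicate 3). Gstm7 was lost in 4 of 6 (0.099 without WT replicate 2, 0.064 without WT replicate 3, 0.095 without Hom replicate 2 and 0.10 without Hom replicate 3). With library size alone both were lost, at −0.10 for Gsto1 and −0.012 for Gstm7.

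Against this direction, 3 GST genes rose. Gstm3 (NCBI Gene 14864), a mu-class gene known to be inducible through NRF2 and CAR, was at 193, 178 and 164 CPM in WT livers and at 763, 1364 and 1367 CPM in Hom livers. The lowest Hom liver lay far above the highest WT liver. Gstm3 rose by 2.71 on the log2 scale, 6.53-fold (SE 0.25, adjusted p = 6.0e-04, edgeR), and passed the threshold in all 13 alternatives for scaling, filtering, blocking and left-out livers. Gsta1, an alpha-class gene, was at 4.58, 3.34 and 8.79 CPM in WT and at 28.6, 44.1 and 61.5 CPM in Hom livers (log2 change 3.00, SE 0.41, adjusted p = 0.0021, edgeR). Gstm5, a mu-class gene otherwise known from brain and testis, was lower in level but tight, with 7.63 to 8.66 CPM in WT and 14.4 to 15.4 CPM in Hom livers (log2 change 0.88, SE 0.11, adjusted p = 0.0014, edgeR).

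The size of the rise of Gsta1 depends on how reads were split between near-identical copies. Of the 50-base words of its longest transcript, 89.7% recur in another gene, most of all in the predicted gene Gm3776, which was not summed here. Its neighbour Gsta2 was at 52.5 to 63.6 CPM in WT and 59.2 to 91.2 CPM in Hom livers, overlapping and not past the threshold (log2 change 0.43, adjusted p = 0.076, edgeR). Gsta2 passed without Hom replicate 1 (0.59, adjusted p = 0.0086). The summed reads of both genes were at 55.8 to 68.1 CPM in WT and 87.7 to 153 CPM in Hom livers, a log2 change of 0.95 (SE 0.20, adjusted p = 0.0098, edgeR). For Gstm3 28.8% of the words recur, mostly in a predicted gene. The summed reads of Gstm1, Gstm2, Gstm3 and Gstm6, which share stretches, gave 0.49 (adjusted p = 0.13, edgeR), a sum set mainly by Gstm1.

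Gstm1, the most abundant member over all 6 livers in TPM (transcript levels scaled by gene length to an equal total per liver), did not pass the test. In WT livers alone, the mean TPM of Gstp1 (5328) and Mgst1 (3572) lay above that of Gstm1 (3302). Gstm1 was at 3317, 2610 and 2529 CPM in WT and at 2505, 4183 and 3101 CPM in Hom livers, so the groups overlapped (log2 change 0.21, SE 0.23, adjusted p = 0.49, edgeR). Gstm2 overlapped as closely, at 117 to 155 CPM in WT and 119 to 146 CPM in Hom livers. Gsta4, which clears the lipid peroxidation product 4-hydroxynonenal, was at 69.8 to 90.1 CPM in WT and 73.1 to 109 CPM in Hom livers. Gstm4, Gstt2, Gstt3, Gstp2, Gstp3 and Mgst3 also overlapped, although Gstm4 passed as lower without Hom replicate 2 (−0.73, adjusted p = 0.045). Gstk1, the kappa-class enzyme of mitochondria and peroxisomes, did not pass either, although its Hom livers, at 72.3 to 113 CPM, lay under the WT livers, at 114 to 121 CPM (adjusted p = 0.081, edgeR). Without Hom replicate 1, both Gstk1 (−0.65, adjusted p = 0.0034) and Gstt3 (−0.81, adjusted p = 0.0071) passed as lower. Gstk1 also passed as lower with DESeq2 in place of edgeR (−0.43, adjusted p = 0.048). Gsto2, with 1 or 2 counts in each liver, and Mgst2, with 0 to 9 counts, had too few reads to test.

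The makeup of the GST pool changed, while its total in TPM did not separate the groups. Summed GST TPM, which are not corrected for library composition, were 15310, 16110 and 16080 in WT and 12650, 21010 and 17990 in Hom livers. A GST total after TMM scaling was not computed. Shares within a family do not depend on how libraries are scaled. Gstp1 held 21.3, 39.6 and 39.4% of GST transcripts in WT and 17.5, 13.9 and 15.1% in Hom livers. Gstm1 held 28.4, 17.4 and 17.1% in WT and 32.4, 37.5 and 31.3% in Hom livers, and was first in WT replicate 1 and in every Hom liver. Gstm3 went from at most 1.79% to between 10.7 and 14.9%. Gsta3 went from between 9.53 and 11.7% to between 4.34 and 6.09%. None of these shares overlapped between the groups (exact two-sided permutation test, p = 0.1 each, the smallest p that 3 livers against 3 allow).

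**Figure D2:**
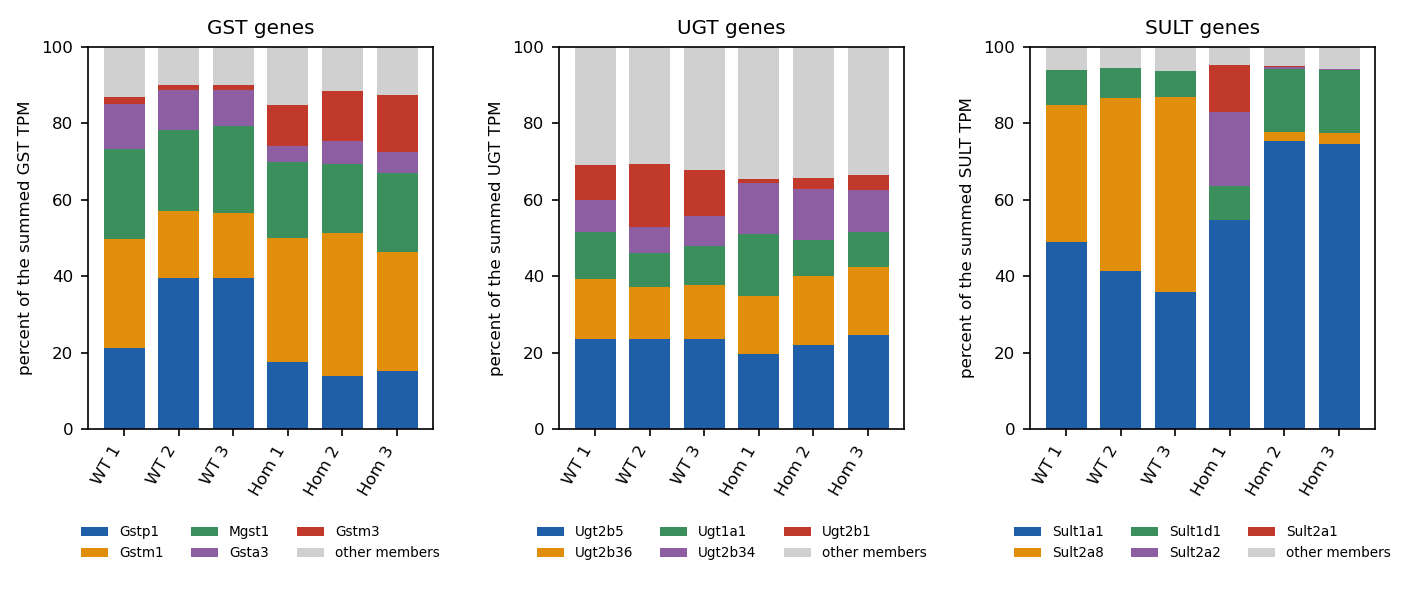
Share of the summed TPM (vertical axis, percent) of the GST, UGT and SULT families held by 5 named members and all others, 1 bar per liver. Gstm3 takes 10.7 to 14.9% of GST transcripts in Hom livers, Ugt2b1 1.04 to 3.77% of UGT transcripts, and Sult2a8 0.116 to 2.97% of SULT transcripts, while Sult2a1 and Sult2a2 appear mainly in Hom replicate 1.

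UGT genes fell across both large subfamilies. Ugt1a genes lie at 1 locus on chromosome 1, where each has its own first exon and all share the remaining exons. Ugt1a1 (NCBI Gene 394436), the enzyme that conjugates bilirubin, was at 728, 625 and 651 CPM in WT livers and at 418, 323 and 281 CPM in Hom livers. The groups did not overlap, and Hom replicate 1 was the highest of its group. Ugt1a1 fell by 0.97 on the log2 scale, 1.96-fold (SE 0.17, adjusted p = 0.0050, edgeR), and passed in all 13 alternatives. Ugt1a9, which conjugates phenols, was at 81.2 to 86.3 CPM in WT and 15.2, 20.0 and 26.5 CPM in Hom livers (log2 change −2.01, SE 0.19, adjusted p = 6.5e-04, edgeR). Ugt1a10, known mainly from intestine, was near the floor, at 0.838 to 1.35 CPM in WT and 0 to 0.259 CPM in Hom livers (log2 change −2.90, SE 0.69, adjusted p = 0.016, edgeR), and was lost without WT replicate 2 (adjusted p = 0.059) or Hom replicate 2 (adjusted p = 0.064).

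The Ugt1a6 genes, which conjugate flat phenols, and Ugt1a5 fell less. Ugt1a6b was at 319 to 356 CPM in WT and 170 to 248 CPM in Hom livers (log2 change −0.68, adjusted p = 0.012, edgeR), and Ugt1a6a at 67.1 to 90.2 against 42.6 to 59.6 CPM (−0.67, adjusted p = 0.015). Ugt1a5 was at 75.8 to 116 CPM in WT and 41.9 to 67.2 CPM in Hom livers (−0.75, adjusted p = 0.033, edgeR). All 3 missed the threshold with library size alone, at −0.21, −0.20 and −0.31. Ugt1a6a was also lost without WT replicate 2 (adjusted p = 0.051) or Hom replicate 3 (0.056), and Ugt1a5 without WT replicate 1 (0.069), Hom replicate 1 (0.077) or Hom replicate 3 (0.097). Ugt1a7c, at 0.391 to 1.35 CPM in WT and 1.17 to 1.73 CPM in Hom livers, overlapped, and Ugt1a2 had 0 to 6 counts and was not tested.

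Reads from the exons that the Ugt1a genes share had to be divided among them when they were counted. From 58.2% (Ugt1a1) to 100% (Ugt1a6a) of their 50-base words recur elsewhere, so single Ugt1a values are uncertain. The reads of the whole locus, which need no such division, summed to 1319, 1218 and 1261 CPM in WT and 698, 720 and 620 CPM in Hom livers. Both groups were tight and far apart. The locus fell by 0.90 on the log2 scale (SE 0.13, adjusted p = 0.0022, edgeR).

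Ugt2b genes carry most hepatic glucuronidation of steroids and many drugs, and 5 of the 7 tested fell, against 20.1% of all tested genes. Ugt2b5, the most abundant UGT by TPM, was at 811, 963 and 889 CPM in WT and 291, 429 and 443 CPM in Hom livers (log2 change −1.20, SE 0.19, adjusted p = 0.0033, edgeR). Ugt2b36 was at 535 to 555 CPM in WT and 220 to 353 CPM in Hom livers (−0.87, SE 0.18, adjusted p = 0.0091, edgeR), a call lost with library size alone (−0.40, adjusted p = 0.15). The steepest fall of an abundant UGT was in Ugt2b1 (NCBI Gene 71773), at 436, 906 and 620 CPM in WT and 20.7, 74.3 and 91.3 CPM in Hom livers, with replicate 1 the lowest in each group. Ugt2b1 fell by 3.40 on the log2 scale, 10.5-fold (SE 0.57, adjusted p = 0.0043, edgeR), with −2.98 without Hom replicate 1, and none of its 50-base words recur in another gene. Its share of UGT transcripts went from 9.37, 16.3 and 12.1% in WT to 1.04, 2.81 and 3.77% in Hom livers.

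Low-level Ugt2b genes moved both ways. Ugt2b38 was at 1.62, 13.0 and 7.56 CPM in WT and 0, 0.371 and 0.560 CPM in Hom livers, again with replicate 1 lowest in both groups (log2 change −4.52, SE 1.00, adjusted p = 0.012, edgeR). Ugt2b37, the single UGT gene that rose, was at 0.503, 0.834 and 0.614 CPM in WT and 2.52, 2.47 and 2.59 CPM in Hom livers (log2 change 1.95, SE 0.28, adjusted p = 0.0023, edgeR). Both are close relatives of Ugt2b5, with which they share sequence, and the summed reads of the 3 genes followed Ugt2b5 (−1.20, adjusted p = 0.0033, edgeR). Ugt2b34, at 465 to 480 CPM in WT and 321, 422 and 323 CPM in Hom livers, was the weakest call (−0.41, adjusted p = 0.048, edgeR), kept in 2 of 13 alternatives, turned to 0.05 with library size alone, and lost on leaving out any single liver other than Hom replicate 2 (adjusted p of 0.073 to 0.16). Ugt2b35 just missed the threshold, at 239 to 270 CPM in WT and 124 to 226 CPM in Hom livers (−0.63, adjusted p = 0.051, edgeR), and passed without Hom replicate 2 (−0.90, adjusted p = 0.0092). It also passed with DESeq2 in place of edgeR (adjusted p = 0.0125) and with a block for replicate number in edgeR (adjusted p = 0.044).

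The remaining UGT genes were Ugt2a and Ugt3a genes. Ugt2a3, known to act on bile acids, was at 199 to 234 CPM in WT and 89.4 to 99.7 CPM in Hom livers, with little spread in either group (log2 change −1.22, SE 0.10, adjusted p = 4.5e-04, edgeR). Ugt3a1 and Ugt3a2 use other sugar donors than glucuronic acid. Ugt3a1 was at 66.1, 115 and 115 CPM in WT and 21.5, 33.9 and 40.6 CPM in Hom livers (−1.62, SE 0.29, adjusted p = 0.0057, edgeR). Ugt3a2 was at 299, 418 and 386 CPM in WT and 160, 154 and 168 CPM in Hom livers (−1.19, SE 0.14, adjusted p = 0.0013, edgeR). Ugt2a1 and Ugt2a2, known from olfactory epithelium, share nearly all of their words (97.0% and 94.5% recur) and had at most 20 counts in any liver, and Ugt2a2 was not tested. Summed UGT TPM, which are not corrected for library composition, were 3043, 2980 and 2771 in WT and 1635, 2484 and 2201 in Hom livers.

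**Figure D3:**
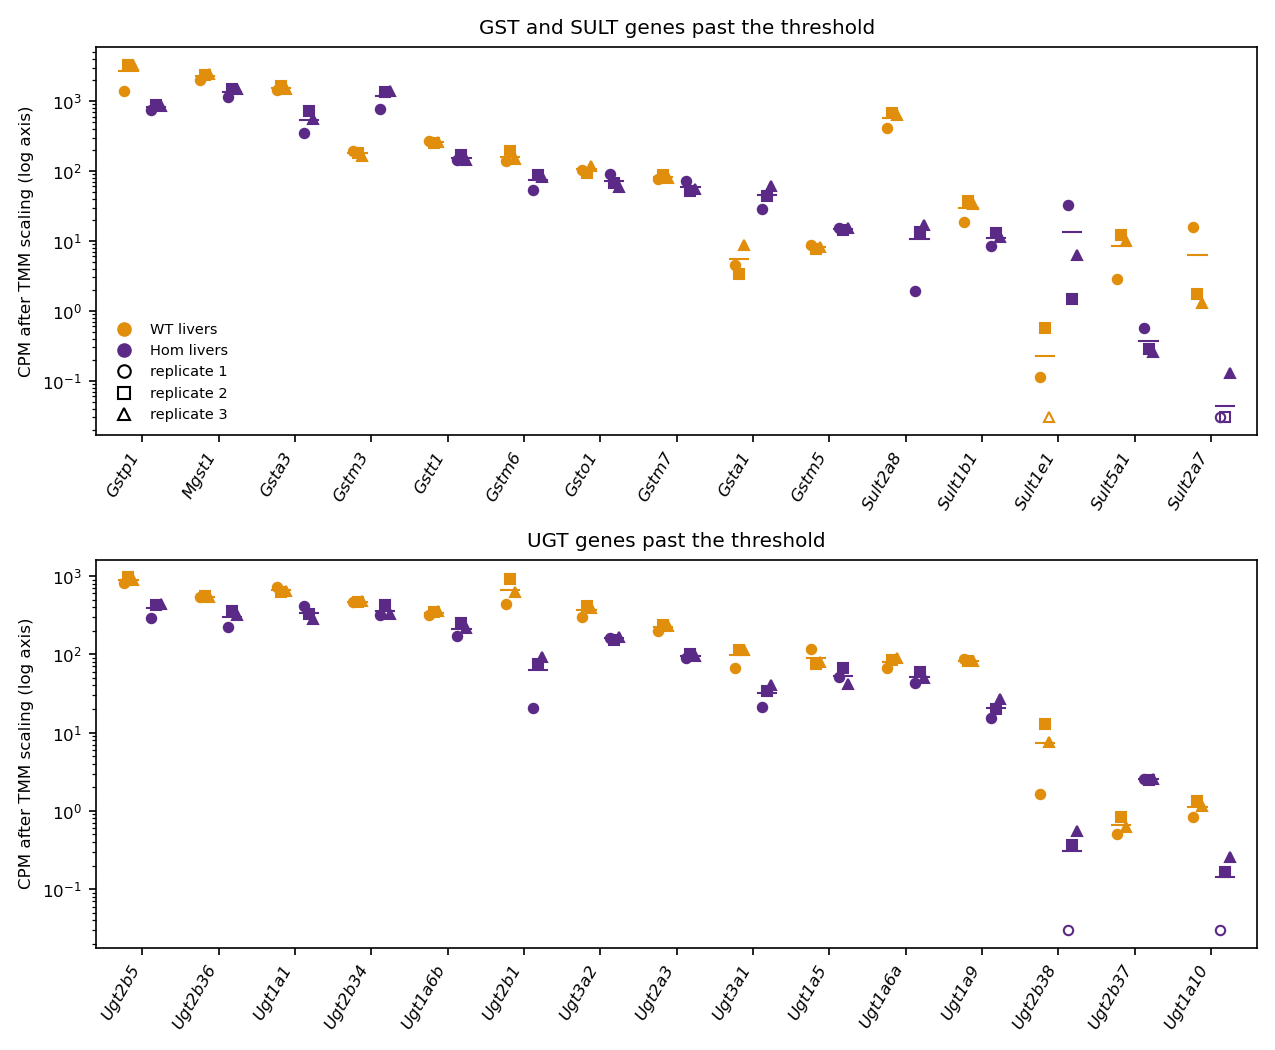
CPM after TMM scaling (log axis) of the 30 members past the threshold, with orange for WT and purple for Hom livers, a marker shape for each replicate number and a line for the group mean. Open markers at the foot of the axis are livers with 0 counts. In Ugt2b1, Ugt2b38 and Sult2a8 the circle of replicate 1 lies lowest in both groups, and in Gstm3 and Gsta1 the groups stand apart in the opposite direction.

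SULT genes held both the largest falls and the largest rise among the 30 members past the threshold. Sult2a8 (NCBI Gene 76971), a hydroxysteroid sulfotransferase that sulfates bile acids in mouse liver, had 7395, 10616 and 10317 counts in WT and 41, 325 and 386 counts in Hom livers, or 413, 681 and 634 CPM against 1.91, 13.4 and 16.6 CPM. The highest Hom liver lay far under the lowest WT liver. Sult2a8 fell by 5.75 on the log2 scale, 53.9-fold (SE 0.76, adjusted p = 0.0018, edgeR), and none of its 50-base words recur in another gene. Without Hom replicate 1 the log2 fold change was −5.26 (adjusted p = 6.0e-04). Its share of SULT transcripts was 35.9, 45.3 and 51.1% in WT and 0.116, 2.34 and 2.97% in Hom livers.

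Its neighbour Sult2a7 had 284, 27 and 21 counts in WT and 0, 0 and 3 counts in Hom livers. The ratio of WT to Hom reads, scaled by library, was 153 (95% counting interval 52.0 to 746, which covers counting error only), and WT replicate 1 held most of the WT reads. The gene passed the test (adjusted p = 0.011, edgeR), also without WT replicate 1 (adjusted p = 0.0089). Sult5a1 was at 2.85, 12.1 and 10.1 CPM in WT and 0.560, 0.289 and 0.259 CPM in Hom livers (log2 change −4.48, SE 0.63, adjusted p = 0.0023, edgeR). Sult1b1, which sulfates thyroid hormones and phenols, was at 18.9, 37.5 and 33.4 CPM in WT and 8.40, 13.2 and 11.4 CPM in Hom livers (log2 change −1.44, SE 0.28, adjusted p = 0.0073, edgeR).

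Sult1e1 (NCBI Gene 20860), the estrogen sulfotransferase, was the SULT gene that rose. It had 2, 9 and 0 counts in WT and 698, 36 and 144 counts in Hom livers. Every Hom liver lay above every WT liver, with Hom replicate 1 far above the other 2. The log2 fold change was 5.87 (SE 1.46, adjusted p = 0.018, edgeR), and it was 4.06 (adjusted p = 0.029) without Hom replicate 1. The call was lost without WT replicate 1 (5.52, adjusted p = 0.056) or WT replicate 3 (5.30, adjusted p = 0.059). Without WT replicate 2 the log2 fold change was larger, at 7.70 (adjusted p = 0.047, edgeR).

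Sult2a1 and Sult2a2, the steroid and bile acid sulfotransferases that are female-predominant in mouse liver, were found mostly in Hom replicate 1, a liver with 0 counts of Ddx3y. Sult2a1 had 0 counts in each WT liver and 2069, 8 and 7 counts in Hom replicates 1, 2 and 3. Sult2a2 had 2, 0 and 0 counts in WT and 2296, 22 and 8 counts in Hom livers. Sult2a5 had 70 counts in Hom replicate 1 and at most 1 elsewhere. For Sult2a1 and Sult2a2 each Hom liver had more counts than each WT liver. With nearly all reads in Hom replicate 1, none of the 3 genes passed the filter for testing. Without that filter Sult2a2 was called higher (adjusted p = 0.048, edgeR). Between Sult2a1 and Sult2a2 the reads are again hard to assign, as 62.1% of the words of Sult2a2 recur elsewhere. In Hom replicates 2 and 3 Sult2a1 and Sult2a2 were at 0.302 to 0.907 CPM, under the 13.4 and 16.6 CPM of Sult2a8 in the same livers.

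**Figure D4:**
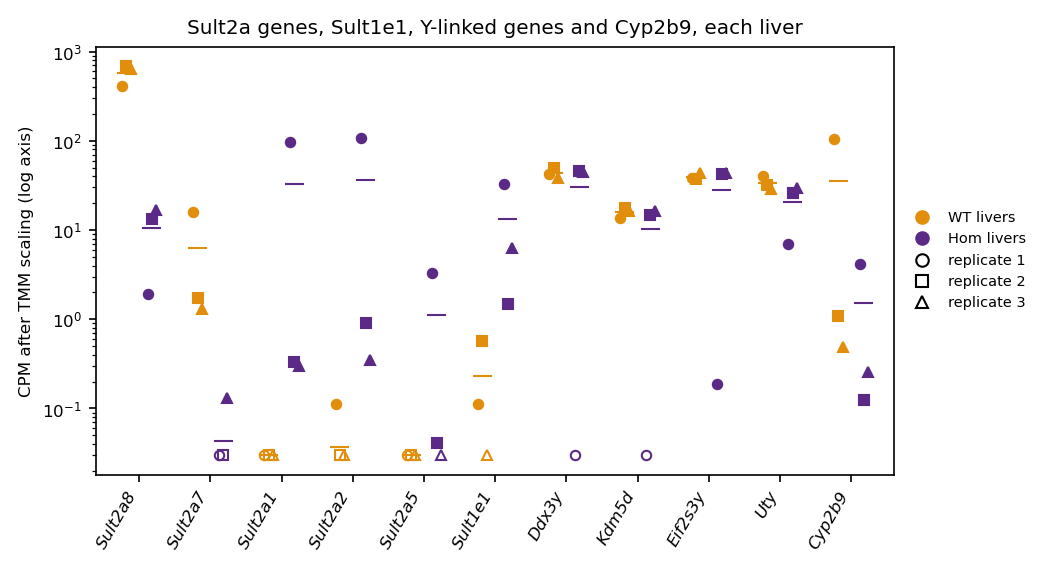
CPM after TMM scaling (log axis) of Sult2a genes, Sult1e1, 4 Y-linked genes and the female-biased Cyp2b9 in each liver, with orange for WT, purple for Hom, a shape per replicate number, a line for the group mean and open markers at the foot of the axis for 0 counts. The purple circle of Hom replicate 1 lies highest for Sult2a1, Sult2a2, Sult2a5 and Sult1e1 and lowest for Sult2a8 and the Y-linked genes, and the orange circle of WT replicate 1 lies highest for Cyp2b9 and Sult2a7.

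The 2 SULT genes with the most reads in all livers besides Sult2a8 did not pass the test. Sult1a1, the main phenol sulfotransferase, was at 338, 369 and 265 CPM in WT and 545, 259 and 252 CPM in Hom livers, where Hom replicate 1 alone lay above the WT range (log2 change 0.12, SE 0.32, adjusted p = 0.78, edgeR). Without that liver it was at −0.34. Sult1d1, which sulfates catecholamines, was at 93.5 to 132 CPM in WT and 106 to 169 CPM in Hom livers (log2 change 0.15, adjusted p = 0.60, edgeR). With Sult2a8 nearly gone, Sult1a1 held 54.7, 75.5 and 74.6% of SULT transcripts in Hom livers, against 35.9 to 49.0% in WT. Sult1c2, at 1.38 to 2.90 CPM over all livers, and Sult2b1, a cholesterol sulfotransferase at 0.112 to 2.27 CPM, overlapped. Most of the WT reads of Sult2b1 were in replicate 3, and without that liver the gene passed as higher (2.33, adjusted p = 0.017). Sult4a1, a gene of brain, had 0, 1 and 1 counts in WT and 8, 13 and 17 counts in Hom livers and was not tested, but without a filter on low counts it passed as higher (adjusted p = 0.014, edgeR). Sult2a3, Sult2a4, Sult3a1 and Sult6b1 had 0 to 2 counts in every liver.

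Neighbouring members moved in both directions among the Gstm genes and in the run of Ugt2 and Sult1 genes, but not in the other clusters counted. Of the 7 Gstm genes on chromosome 3, Gstm5 and Gstm3 rose, Gstm7 and Gstm6, which lie between them, fell, and Gstm2, Gstm1 and Gstm4 did not pass the test. At the Ugt1a locus 6 of 8 genes fell and 0 rose. Of the 3 Gsta genes on chromosome 9, 1 rose and 0 fell, and of the 3 Gstp genes on chromosome 19, 1 fell and 0 rose. Of the 7 Sult2a genes on chromosome 7, 2 fell, 0 rose and 5 were not tested. Over all tested genes 20.1% fell and 21.5% rose. In the run of Ugt2 and Sult1 genes on chromosome 5, Ugt2b37 and Sult1e1 rose, 7 of 13 fell, and Ugt2b37 lay between Ugt2b5 and Ugt2a3, which both fell. Gene order is that of GRCm38.p6.

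**Figure D5:**
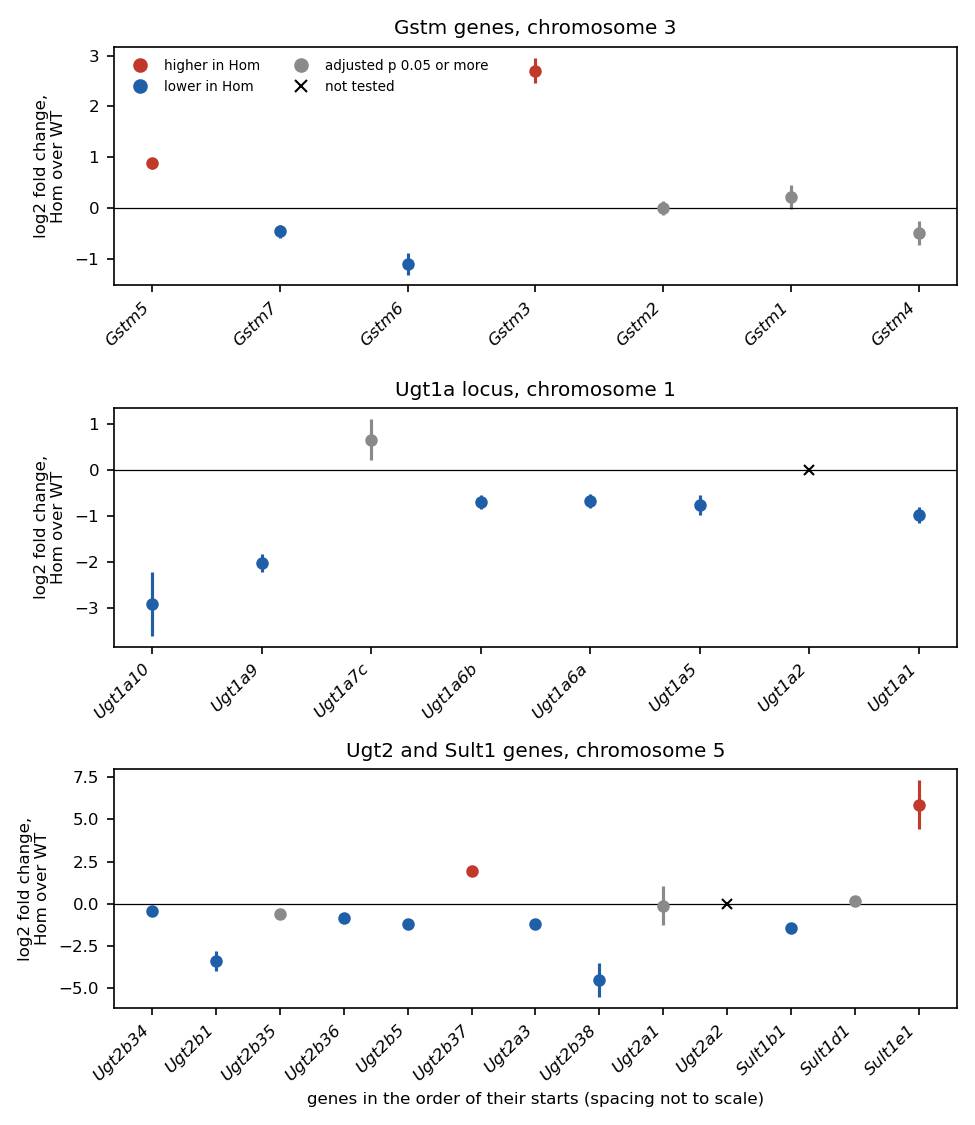
Log2 fold change (Hom over WT, vertical axis, bars for 1 standard error) of neighbouring members in the order of their starts, with spacing not to scale. Red and blue mark genes that rose and fell, grey those that did not pass the test and crosses those not tested. Gstm3 at 2.71 stands next to Gstm6 at −1.10, and Sult1e1 at 5.87 ends the run that holds Ugt2b38 at −4.52.

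Counts for genes that supply the donors are read against the 21.5% of all tested genes that rose and the 20.1% that fell. In the glutathione list 5 of 15 tested genes rose and 7 fell. Gclc, the catalytic subunit of glutamate-cysteine ligase, was at 516, 352 and 341 CPM in WT and 105, 179 and 144 CPM in Hom livers and fell by 1.50 on the log2 scale (SE 0.24, adjusted p = 0.0038, edgeR). Its partner Gclm was at 142 to 165 CPM in WT and 145 to 147 CPM in Hom livers (adjusted p = 0.69, edgeR). For glucuronidation 3 of 9 rose and 3 fell. Ugp2, which makes UDP-glucose, fell from between 284 and 297 CPM to between 159 and 165 CPM (log2 change −0.83, adjusted p = 7.6e-04, edgeR). Ugdh, the next enzyme, rose from between 177 and 198 CPM to between 234 and 320 CPM (0.51, adjusted p = 0.024, edgeR), a call lost without WT replicate 2 (0.086), WT replicate 3 (0.057) or Hom replicate 2 (0.056). In the PAPS list 4 of 15 fell, near the share of all genes, and none rose at an adjusted p under 0.05 in edgeR. Papss1, at 17.7 to 24.6 CPM in WT and 16.1 to 19.1 CPM in Hom livers, and Papss2, at 234 to 285 against 191 to 231 CPM, did not pass the test (adjusted p = 0.29 and 0.067, edgeR). Without WT replicate 1, Papss2 passed as lower (−0.42, adjusted p = 0.032, edgeR).

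Of 27 other tested phase II enzymes, 14 fell and 3 rose, against 20.1% and 21.5% of all tested genes. Gstz1, the zeta-class transferase that also isomerizes maleylacetoacetate in tyrosine breakdown, fell from between 633 and 838 CPM to between 401 and 460 CPM (log2 change −0.83, adjusted p = 0.0050, edgeR). Nqo1, the quinone reductase used as a reporter of NRF2, rose from between 4.94 and 7.43 CPM to between 12.8 and 17.7 CPM (1.14, adjusted p = 0.0061, edgeR). Among transporters that export conjugates or take up organic anions, 9 of 17 fell and 2 rose, against the same 20.1% and 21.5%. Abcc2, the canalicular exporter of conjugated bilirubin, was at 409, 548 and 431 CPM in WT and 253, 341 and 326 CPM in Hom livers (−0.59, adjusted p = 0.028, edgeR), and the call was lost without WT replicate 2 (0.084), WT replicate 3 (0.051), Hom replicate 1 (0.057) or Hom replicate 3 (0.069), and with library size alone (−0.12). Abcc4, an exporter of the basolateral side, was at 3.21 to 5.08 CPM in WT and 6.02 to 8.53 CPM in Hom livers (0.72, adjusted p = 0.041, edgeR), a call lost without WT replicate 2 (0.10), WT replicate 3 (0.071), Hom replicate 2 (0.14) or Hom replicate 3 (0.096). Abcc3, also basolateral, was at 256 to 302 CPM in WT and 221 to 255 CPM in Hom livers (adjusted p = 0.10, edgeR), and passed as lower without WT replicate 1 (−0.34, adjusted p = 0.046, edgeR). Slco1a1, an uptake carrier that is higher in male mice, went from 183, 403 and 374 CPM to 1.17, 1.15 and 2.46 CPM (−7.64, adjusted p = 2.2e-04, edgeR).

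Among 22 regulators of these enzymes, 8 fell and 4 rose, against 20.1% and 21.5% of all tested genes. Nr1i3, which encodes CAR, was at 82.0 to 92.1 CPM in WT and 41.7 to 44.8 CPM in Hom livers (log2 change −1.02, adjusted p = 3.7e-04, edgeR). Nr1i2, which encodes PXR, was at 98.6 to 101 CPM in WT and 61.1 to 83.1 CPM in Hom livers (−0.51, adjusted p = 0.016, edgeR), a call lost without Hom replicate 3 (adjusted p = 0.059) and with library size alone (−0.065, adjusted p = 0.63). Hnf4a, a factor of hepatocyte identity, was at 784, 967 and 829 CPM in WT and 578, 505 and 517 CPM in Hom livers (−0.69, adjusted p = 0.0074, edgeR), a call lost with library size alone (−0.23, adjusted p = 0.13). Nfe2l2, which encodes NRF2, rose from between 57.9 and 67.1 CPM to between 85.0 and 122 CPM (0.76, adjusted p = 0.0060, edgeR). Ahr overlapped between groups, at 40.0 to 65.7 and 51.0 to 63.8 CPM (adjusted p = 0.86, edgeR). Cux2, a factor of female liver, was at 1.28, 0.449 and 0.430 CPM in WT and 8.73, 3.96 and 2.24 CPM in Hom livers (2.75, adjusted p = 0.014, edgeR), a call lost without WT replicate 2 (adjusted p = 0.059). Bcl6, a factor of male liver, was at 132, 30.4 and 19.4 CPM in WT and 15.9, 16.0 and 34.7 CPM in Hom livers, with WT replicate 1 far above the rest.

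Genes read as reporters of these receptors gave 4 of 16 lower and 3 higher, near the 20.1% and 21.5% of all tested genes. Cyp1a2, a target of the aryl hydrocarbon receptor, fell from between 1248 and 1397 CPM to between 140 and 364 CPM (log2 change −2.30, adjusted p = 0.0026, edgeR). Cyp2b10, the CAR reporter, was at 11.8 to 16.6 CPM in WT and 11.2, 0.412 and 1.77 CPM in Hom livers and did not pass the test (adjusted p = 0.17, edgeR), but passed as lower without Hom replicate 1 (−3.77, adjusted p = 0.0048). Cyp3a11, the PXR reporter, overlapped, at 4484 to 5898 CPM in WT and 3447 to 5396 CPM in Hom livers (adjusted p = 0.35, edgeR), as did Hmox1, an NRF2 reporter, at 22.1 to 32.3 and 20.4 to 27.6 CPM (adjusted p = 0.60).

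Male-biased liver genes fell in the same livers, and their part in the phase II changes was not tested. Of the 17 male-biased genes, 13 were lower in Hom livers (median log2 fold change −3.02), against 20.1% of all tested genes. Of 14 tested female-biased genes 4 were higher and 2 lower, which is near the 21.5% and 20.1% of all tested genes. Elovl3 went from 230, 734 and 805 CPM to 0.513, 1.73 and 7.80 CPM (−7.45, adjusted p = 0.0023, edgeR), and Cyp4a12a from 95.2, 449 and 628 CPM to 0.280, 32.2 and 24.9 CPM (−4.35, adjusted p = 0.033, edgeR), a call lost on leaving out WT replicate 2 (0.079), WT replicate 3 (0.073), Hom replicate 2 (0.072) or Hom replicate 3 (0.094). Mup20 overlapped, at 1391, 8572 and 7850 CPM in WT and 468, 2484 and 7563 CPM in Hom livers. The female-biased Cyp3a41a had 0 counts in all WT livers and 161, 0 and 7 counts in Hom livers. With Hom replicate 1 left out, Sult2a8, Ugt2b1 and Gstp1 were at −5.26, −2.98 and −1.64. The male-biased sum was then still 3850 and 9400 CPM in Hom livers, against 10400, 42100 and 38400 CPM in WT livers. Leaving out that liver therefore cannot separate genotype from the fall of male-biased genes.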

How the data were processed

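Liver RNA of 3 WT and 3 Hom mice was sequenced on the DNBSEQ platform. The submitters' processing notes name HISAT2 2.0.4, Bowtie2 2.2.5, RSEM 1.2.12 and the build mm9. The annotation and the strandedness are not given in the sources used here. The authors deposited estimated counts, FPKM and TPM per liver for 17975 genes. The deposited estimated counts are unscaled and need not be whole (65.9% were), the authors' FPKM are scaled by gene length and depth and were not used, and the authors' TPM served for levels between genes and shares within a family. The deposited group means carry crossed names for all 17975 genes and were not used.

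Rounded counts went into edgeR 4.0.16 under R 4.3.3 (filterByExpr, TMM, glmQLFit and glmQLFTest). Calls used a Benjamini-Hochberg adjusted p under 0.05 over 13805 genes and no minimum fold change. The procedure was also run on simulated data with as many genes raised as lowered and no shift in library composition. That run does not bear on the choice of scaling. Totals were 19349418 to 19730236 reads, and depth bears mostly on genes with few reads. Within a group, counts of any 2 libraries differed beyond sampling noise (lowest chi-square over its degrees of freedom 23.8). Alternatives were DESeq2 1.42.0, library size alone, upper-quartile factors, 2 other filters, a block for replicate number, leaving out each liver, and, chosen after seeing the data, both replicates 1 left out and summed reads of near-identical copies. Shared sequence was the percent of 50-base words of the longest GENCODE M21 transcript that recur in another gene.

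Members and gene lists were chosen with earlier results of these data known. Genes were named by rule: Nek7, in each family the 6 tested members with the highest mean TPM and, past the threshold, the 5 highest and 5 lowest fold changes, all untested members, and set genes of the lists; the other members were added to account for all 60. Lists of macrophage markers (6 of 18 higher, 2 lower), stellate and fibroblast markers (10 of 19 higher, 3 lower) and endothelial markers (7 of 13 lower) were also counted. Of all tested genes 21.5% were higher and 20.1% lower.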

Additional observations from a re-analysis of the deposited data

How the results depend on the processing

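Of the 30 members past the threshold, 18 passed it in every one of 13 alternatives that gave a value, and 1, Ugt2b34, changed direction in one. The cause of the other losses was not tested. With library size alone, which leaves out the composition correction, 6574 genes were higher and 642 lower, and the members split into 8 higher and 15 lower in all, 5 and 2 in GST, 9 lower in UGT and 2 higher in SULT. Under that scaling these log2 fold changes turned positive: Gstk1 0.014, Gstm2 0.44, Gstp3 0.20, Gstt2 0.13, Gstt3 0.15, Ugt2a1 0.34, Ugt2b34 0.054, Sult1c2 0.19, Sult2b1 0.35, Gclm 0.40, Papss1 0.24, Papss2 0.13, Abcc3 0.21, Cyp3a11 0.18 and Hmox1 0.31. With upper-quartile factors Gstm2 was at 0.087 and Gclm at 0.042.

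With at least 10 counts in every liver, 3 members were higher, 0 of them UGT or SULT, and 2 SULT genes were lower, since that filter drops genes with few counts; Gstm2 was at 0.043. Without a filter 3 SULT genes, Sult1e1, Sult2a2 and Sult4a1, were higher. With both replicates 1 left out, 8 members were higher, among them 5 GST and 2 SULT genes, Gstm2 was at 0.18, Ugt2a1 at 0.59, Sult1a1 at −0.30, Sult1c2 at 0.012, Sult1d1 at −0.070 and Gclm at 0.039. With single livers left out, lower genes numbered 1767 (without Hom replicate 3) to 2750, with 1829 without Hom replicate 2, and higher SULT genes 1 to 2. Log2 fold changes of genes that did not pass the test crossed 0 on leaving out a liver in Gstm1 (−0.0074 to 0.37), Gstm2 (−0.098 to 0.14), Gstp2 (−0.21 to 0.38), Ugt2a1 (−0.71 to 0.56), Sult1a1 (−0.34 to 0.31), Sult1d1 (−0.11 to 0.26), Sult2b1 (−0.66 to 2.33), Gclm (−0.094 to 0.018), Ahr (−0.14 to 0.20) and Hmox1 (−0.24 to 0.063).

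Sums of near-identical copies took the sign of the most abundant gene, which is 0.49 for Gstm2 and Gstm6, −1.69 for Gstp2, −0.90 for Ugt1a7c and −1.20 for Ugt2b37. Replicate numbers are shared by different mice and did not pair them (correlations of deviations −0.11, −0.056 and −0.049). With the replicate block 2383 genes were higher and 2214 lower, 5 members were higher and 23 lower, Gstm2 was at 0.0030 and Sult2b1 at 0.65. Depth limits the 12 members with too few reads for a test and genes near 1 CPM.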
